A study of Mus musculus with 29 samples.

Results

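The BCL2 family genes described here are the 10 members Bcl2, Bcl2l1, Mcl1, Bax, Bak1, Bcl2l11, Bbc3, Pmaip1, Bid and Bad, taken by gene symbol from a table of 30025 genes. RNA-Seq was performed on CD150hi HSC, CD150lo HSC and CD150neg MPP, which are c-kit+, lineage-, Sca-1+, CD41-, CD48- bone marrow cells separated by their surface CD150. They were sorted from C57BL/6J WT mice and from 5A3+/del mice aged 12.42 to 13.85 weeks, and the comparison asks what a germ line loss of 1 copy of the 5A3 segment, syntenic to a commonly deleted stretch of human 7q22, does to expression. The deletion was made with Cre and LoxP in embryonic stem cells and is carried by every cell of the mutant mice, while the WT mice carry no engineered allele. Each of the 6 groups had 5 libraries, apart from the mutant CD150neg MPP with 4, which makes 29 in all, and the libraries of a replicate number within a genotype came from the same mouse.

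Members of the BCL2 family decide whether the outer membrane of the mitochondrion stays intact. The pro-survival proteins BCL2, BCL-XL (from Bcl2l1) and MCL1 hold back the effectors BAX and BAK (from Bak1), which otherwise form pores that release cytochrome c and start the caspases. BH3-only proteins, among them BIM (from Bcl2l11), PUMA (from Bbc3), NOXA (from Pmaip1), BID and BAD, carry the death signals: they bind the pro-survival proteins, and some of them also activate BAX and BAK. MCL1 is known to be required for the survival of hematopoietic stem cells, and Bcl2l11 and Bbc3 are known targets of FOXO factors, with Bbc3, Pmaip1 and Bax also known targets of p53.

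The libraries held between 21229490 and 38797569 fragments, as worked out from the steps of the low values, and 9 of the 10 members passed the filter on low values (FPKM of at least 1 in at least 4 libraries). FPKM are fragments scaled to the exon length of a gene and to library size. The mean log2(FPKM + 1) over 7 expressed genes of the deleted segment lay between 2.51 and 3.04 in the 14 5A3+/del libraries and between 3.48 and 3.79 in the 15 WT libraries. Slamf1, which encodes CD150, averaged 15.2 FPKM in the CD150hi gate, 1.29 in the CD150lo gate and 0.112 in the CD150neg gate, and Kit, Ly6a and Procr were above 42 FPKM in every library. Among markers of other cells, the sum of 5 B cell markers ranged from 6.02 to 31.8 FPKM, nearly all of it from Cd79b, while Ms4a1 was listed at 0 in 26 libraries and Pax5 in 15. The sum of 6 granulocyte and monocyte markers, led by S100a8 and S100a9, ranged from 7.12 to 1258 FPKM. That of 4 megakaryocyte and platelet markers ranged from 13.1 to 43.1 FPKM, and that of 5 erythroid markers from 4.91 to 27.3. The sums of 5 T cell markers and of 5 marrow stroma and endothelium markers reached at most 4.92 and 2.46 FPKM. The 5A3+/del CD150hi HSC library of mouse 1 and the WT CD150hi HSC library of mouse 2 had the fewest genes with a value above 0, 17047 and 17210, against 17971 to 23074 in the others. Xist was at 234 to 319 FPKM in the libraries of WT mouse 3 and under 0.5 in those of the other mice.

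The promoter windows of the 3 members that differed between populations, and of Bbc3, the member with the lowest adjusted p for genotype over the 3 populations together, are shown so that their base composition and motifs can be compared. Each runs from 250 bases before to 50 bases after a RefSeq transcription start on GRCm38.p6 and reads 5′ to 3′ on the strand of the gene. Capitals mark the FOXO core GTAAACA and the GC box GGGCGG, which SP1 family factors are known to bind, each on either strand.
Bcl2, chr1:106714241-106714540, minus strand: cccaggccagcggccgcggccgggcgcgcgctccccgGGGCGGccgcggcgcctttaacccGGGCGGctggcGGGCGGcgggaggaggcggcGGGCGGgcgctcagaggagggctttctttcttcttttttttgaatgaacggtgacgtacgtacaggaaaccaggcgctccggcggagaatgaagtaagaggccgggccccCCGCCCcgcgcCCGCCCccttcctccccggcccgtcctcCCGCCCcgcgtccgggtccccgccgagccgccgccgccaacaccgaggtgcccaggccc
Bcl2l1, chr2:152831679-152831978, minus strand: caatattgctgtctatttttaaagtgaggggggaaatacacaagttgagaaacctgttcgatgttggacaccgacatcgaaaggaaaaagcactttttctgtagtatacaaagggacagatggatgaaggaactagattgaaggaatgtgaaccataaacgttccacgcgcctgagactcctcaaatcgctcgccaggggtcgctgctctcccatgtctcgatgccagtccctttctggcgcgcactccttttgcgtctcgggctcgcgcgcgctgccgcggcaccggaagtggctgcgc
Bcl2l11, chr2:128125788-128126087, plus strand: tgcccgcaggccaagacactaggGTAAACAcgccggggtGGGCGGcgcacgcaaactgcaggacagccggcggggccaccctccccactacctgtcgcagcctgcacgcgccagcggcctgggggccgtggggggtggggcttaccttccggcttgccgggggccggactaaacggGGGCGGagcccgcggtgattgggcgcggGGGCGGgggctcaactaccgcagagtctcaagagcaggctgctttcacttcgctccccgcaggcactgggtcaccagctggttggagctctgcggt
Bbc3, chr7:16310011-16310310, plus strand: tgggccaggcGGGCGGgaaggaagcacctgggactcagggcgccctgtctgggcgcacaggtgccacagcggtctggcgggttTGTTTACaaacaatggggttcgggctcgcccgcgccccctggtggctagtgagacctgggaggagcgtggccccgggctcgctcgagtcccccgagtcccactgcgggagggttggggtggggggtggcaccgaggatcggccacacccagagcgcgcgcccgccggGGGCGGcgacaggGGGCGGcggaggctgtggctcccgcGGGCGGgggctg
The Bcl2 window holds 7 GC boxes and no FOXO core, and 76.0% of its bases are G or C. The Bcl2l1 window, 1 of 3 for that gene, holds neither motif and is 52.3% G or C. The Bcl2l11 window, the first of 2, holds 1 FOXO core and 3 GC boxes, and the Bbc3 window, 1 of 3, holds 1 FOXO core and 4 GC boxes. Promoters were examined for 9 of the 10 members, with Pmaip1 left out, in 15 windows, of which 2 hold the FOXO core and 10 a GC box. The windows shown for Bcl2l11 and Bbc3 are those with the core, and the other windows of these genes hold none. Over all 32851 promoter windows of the table, 3.65% hold the FOXO core and 35.7% a GC box.

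Mcl1 was by far the most abundant member. Its deposited level, which is scaled to exon length, was 107 ± 14.7 FPKM (SD, n = 29), with a range of 77.9 to 131. The exon lengths of the members ran from 1339 bases for Bax to 8029 for Bcl2l11, and the RNA was amplified. How far these affect levels compared between genes was not tested. The effectors followed, Bak1 at 14.3 ± 3.86 and Bax at 10.6 ± 3.08 FPKM, then Bcl2 at 8.33 ± 2.31, Bid at 5.88 ± 1.59 and Bad at 5.24 ± 1.66. Bcl2l11 at 4.36 ± 1.72, Bcl2l1 at 2.27 ± 0.96 and Bbc3 at 1.91 ± 0.906 were lower (SD, n = 29 for each). Mcl1 was above Bak1 in 29 of 29 libraries, and Bak1 above Bax in 25, while neighbours further down the order changed places more often: Bid was above Bad in 19 libraries and Bad above Bcl2l11 in 15. Of the summed FPKM of the 3 pro-survival members, Mcl1 made up 90.8% on average (range 82.8% to 95.1%), Bcl2 7.23% and Bcl2l1 2.00%.

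**Figure D1:**
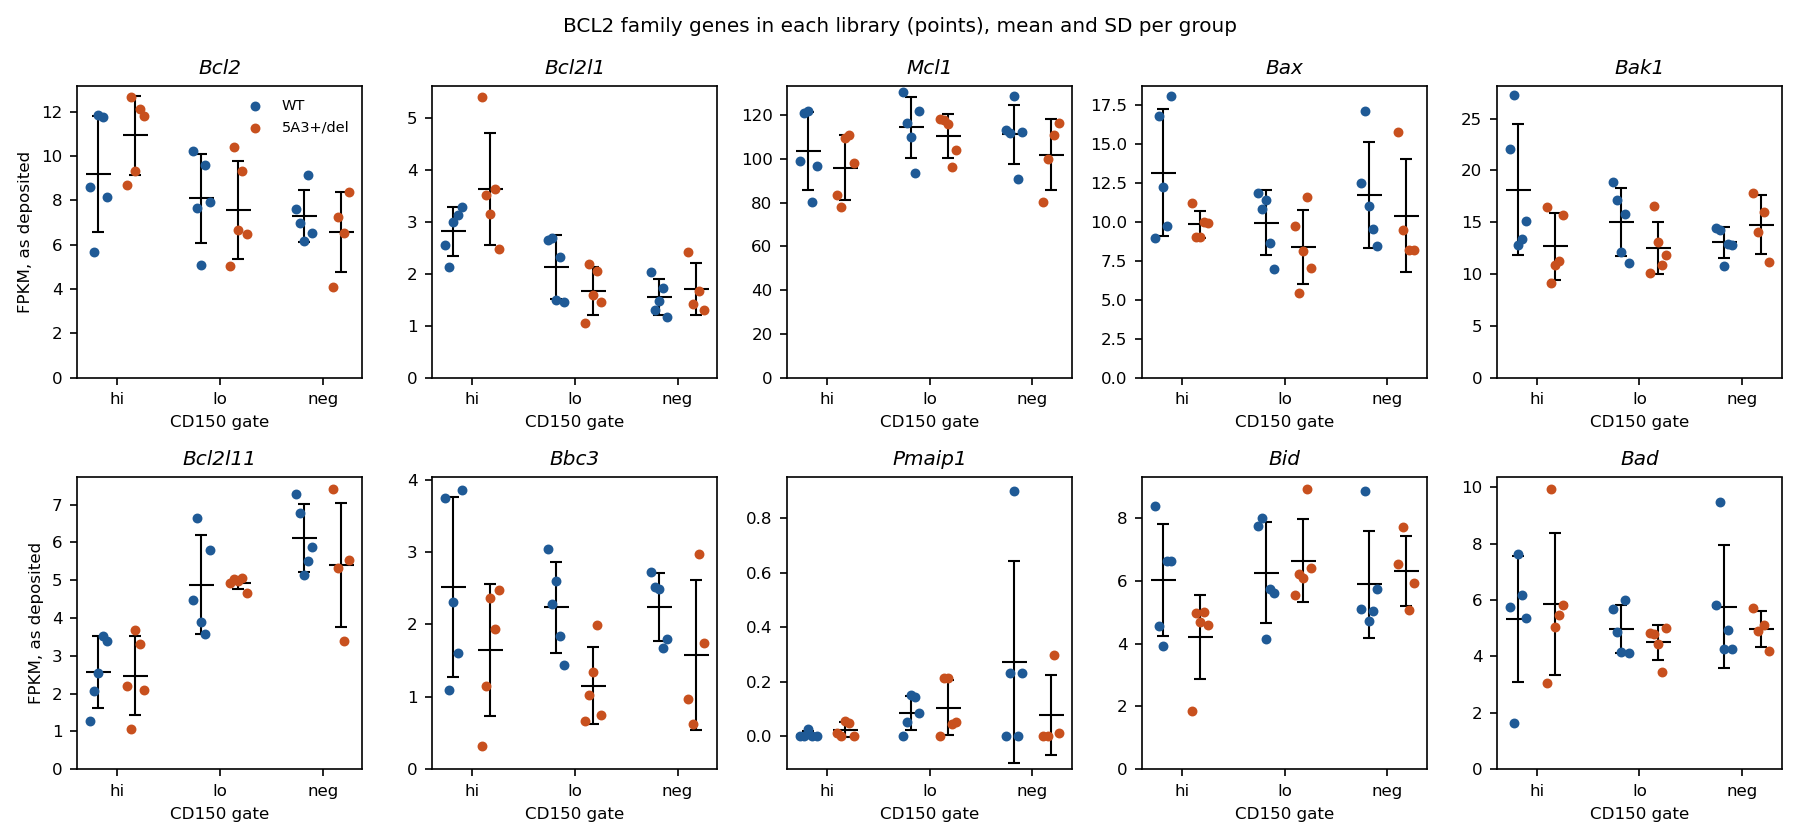
Deposited FPKM (vertical axis, from 0 in all panels but that of Pmaip1) of the 10 members in each library (points) by CD150 gate and genotype, with the mean and SD of each group as bars. The group means of Bcl2l1 and Bcl2 are highest in CD150hi HSC, those of Bcl2l11 are lowest there, and Pmaip1 reaches 0.9 FPKM at most.

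Compared with CD150neg MPP, the pro-survival genes Bcl2l1 and Bcl2 were higher in CD150hi HSC, and the BH3-only gene Bcl2l11 was lower. Compared with CD150lo HSC, Bcl2l1 and Bcl2l11 differed in the same directions, and Bcl2 did not pass the test. Averaged over the genotypes, the ratio of normalized FPKM + 1 in CD150hi HSC to CD150neg MPP was 1.63 for Bcl2l1, 1.43 for Bcl2 and 0.531 for Bcl2l11. The deposited means in these populations were 3.23 and 1.61 FPKM for Bcl2l1 and 10.1 and 6.96 for Bcl2. For Bcl2l11 they were 2.52 and 5.80 FPKM. Population differences were taken on the quantile normalized log2(FPKM + 1) scale, on which changes of weakly expressed genes appear smaller than they are. They were tested with limma over all 29 libraries with Benjamini-Hochberg adjustment over 15409 genes. An adjusted p under 0.05 was reached by 2 members between CD150hi HSC and CD150lo HSC, where 7.64% of all genes tested were called. Between CD150hi HSC and CD150neg MPP it was reached by 3 members, against 13.2% of all genes. Between CD150lo HSC and CD150neg MPP it was reached by 0 members with limma, against 0.292% of all genes. There 0 members had an unadjusted p under 0.05 in limma, against 7.93% of all genes. Sign changes enumerated over 9 mice gave Bcl2 an exact p of 0.0273 in this comparison. The median log2 difference of the 9 members tested was 0.13, 0.09 and 0.02 for CD150hi minus CD150lo, CD150hi minus CD150neg and CD150lo minus CD150neg, beside medians of all genes between -0.01 and 0.00. These comparisons share libraries, and in bulk samples fewer cells that express a gene cannot be told apart from less RNA of it per cell.

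Bcl2l11, whose product BIM binds all pro-survival members, was the member with the largest difference. In WT CD150hi HSC it was at 1.26, 2.08, 2.56, 3.53 and 3.40 FPKM in mice 1 to 5, and in WT CD150lo HSC at 4.49, 6.65, 3.90, 3.56 and 5.80. In WT CD150neg MPP it was at 7.29, 6.79, 5.14, 5.51 and 5.87 FPKM. The highest WT CD150hi value thus lay just below the lowest WT CD150lo value, and well below every WT CD150neg value. In 5A3+/del mice 1 to 5 it was at 2.19, 1.06, 3.67, 3.32 and 2.08 FPKM in CD150hi HSC and at 4.93, 5.04, 4.97, 5.05 and 4.67 in CD150lo HSC. In 5A3+/del CD150neg MPP it was at 7.40, 5.32, 3.38 and 5.53 FPKM in mice 1 to 4. The CD150hi and CD150lo values did not overlap in the mutant mice either, and the CD150lo values were close together, but mouse 3 had less Bcl2l11 in CD150neg MPP than in CD150hi HSC.

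Within mice, the deposited Bcl2l11 level was lower in CD150hi HSC than in CD150lo HSC in 10 of 10 mice, and lower than in CD150neg MPP in 8 of 9. On the normalized scale the counts were 9 of 10 and 9 of 9, with WT mouse 4 at a difference of 0.00 in the first. The normalized log2 difference was -0.77 ± 0.13 (SE) for CD150hi minus CD150lo (limma, adjusted p = 0.000215) and -0.91 ± 0.14 for CD150hi minus CD150neg (adjusted p = 1.87e-05). For CD150lo minus CD150neg it was -0.14, with a 95% interval from -0.42 to 0.14 (adjusted p = 0.866). Enumeration of all sign changes over the mice, two-sided, gave an exact p of 0.00391 over 10 mice for the first comparison and of 0.00391 over 9 mice for the second, which is the smallest that 9 mice allow, among 27 such tests over the 9 members. In the libraries of a single genotype both differences were again past the threshold, at -0.73 and -0.97 in WT and at -0.80 and -0.84 in 5A3+/del mice.

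Bcl2l1, which encodes BCL-XL, ran the other way. It was at 2.56, 2.13, 3.00, 3.14 and 3.28 FPKM in WT CD150hi HSC, at 2.66, 2.69, 1.49, 2.33 and 1.45 in WT CD150lo HSC and at 2.04, 1.31, 1.48, 1.72 and 1.17 in WT CD150neg MPP. The WT CD150hi values overlapped those of CD150lo HSC, whereas all lay above those of CD150neg MPP. In 5A3+/del mice it was at 5.40, 3.52, 3.14, 3.63 and 2.48 FPKM in CD150hi HSC, at 1.05, 2.19, 1.60, 2.05 and 1.46 in CD150lo HSC and at 2.42, 1.42, 1.66 and 1.30 in CD150neg MPP. There the CD150hi values lay above those of both other populations, and the highest came from the library with the fewest genes detected. The log2 difference was 0.56 ± 0.11 (SE) for CD150hi minus CD150lo (limma, adjusted p = 0.00172) and 0.71 ± 0.12 for CD150hi minus CD150neg (adjusted p = 7.54e-05). It was positive in 9 of 10 and in 9 of 9 mice, and the deposited level was higher in 8 of 10 and 9 of 9. In WT libraries alone the difference between CD150hi and CD150lo HSC was 0.32 (adjusted p = 0.332), and in 5A3+/del libraries alone 0.81 (adjusted p = 0.0325). The genotypes differed by 0.48 in this difference, with a 95% interval from 0.01 to 0.95 (adjusted p = 0.999), and by 0.27 without 5A3+/del mouse 1, so a different step in the mutant was not shown.

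Bcl2 had the smallest of the 3 population differences and the widest overlap. It was at 8.61, 5.65, 11.8, 11.8 and 8.14 FPKM in WT CD150hi HSC and at 7.59, 6.98, 6.18, 9.13 and 6.53 in WT CD150neg MPP. In 5A3+/del mice it was at 8.69, 12.7, 9.31, 12.1 and 11.8 FPKM in CD150hi HSC and at 4.10, 7.25, 6.52 and 8.36 in CD150neg MPP. The populations overlapped in WT mice, where mouse 2, whose CD150hi library was the second lowest in genes detected, had the lowest CD150hi value, and they did not overlap in the mutant mice. In CD150lo HSC Bcl2 ranged from 5.09 to 10.2 FPKM in WT and from 5.04 to 10.4 in 5A3+/del mice. The log2 difference of CD150hi HSC from CD150neg MPP was 0.51 ± 0.14 (SE) (limma, adjusted p = 0.016) and was positive in 8 of 9 mice. The call was lost in the libraries of either genotype alone, at 0.31 in WT (adjusted p = 0.33) and 0.72 in 5A3+/del mice (adjusted p = 0.0986). Against CD150lo HSC the difference was 0.32, with an unadjusted p of 0.0325 and an adjusted p of 0.205 in limma. Sign changes over 10 mice gave an exact p of 0.0352 for it. For CD150lo minus CD150neg the mean difference within mice was 0.22, positive in 8 of 9 mice (exact sign-change p = 0.0273). These exact p-values were not adjusted for the number of such tests. Part of the Bcl2 exons, 558 bases, overlaps D630008O14Rik on the opposite strand, and strand is not stated for the counting, so reads of the pair cannot be told apart.

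**Figure D2:**
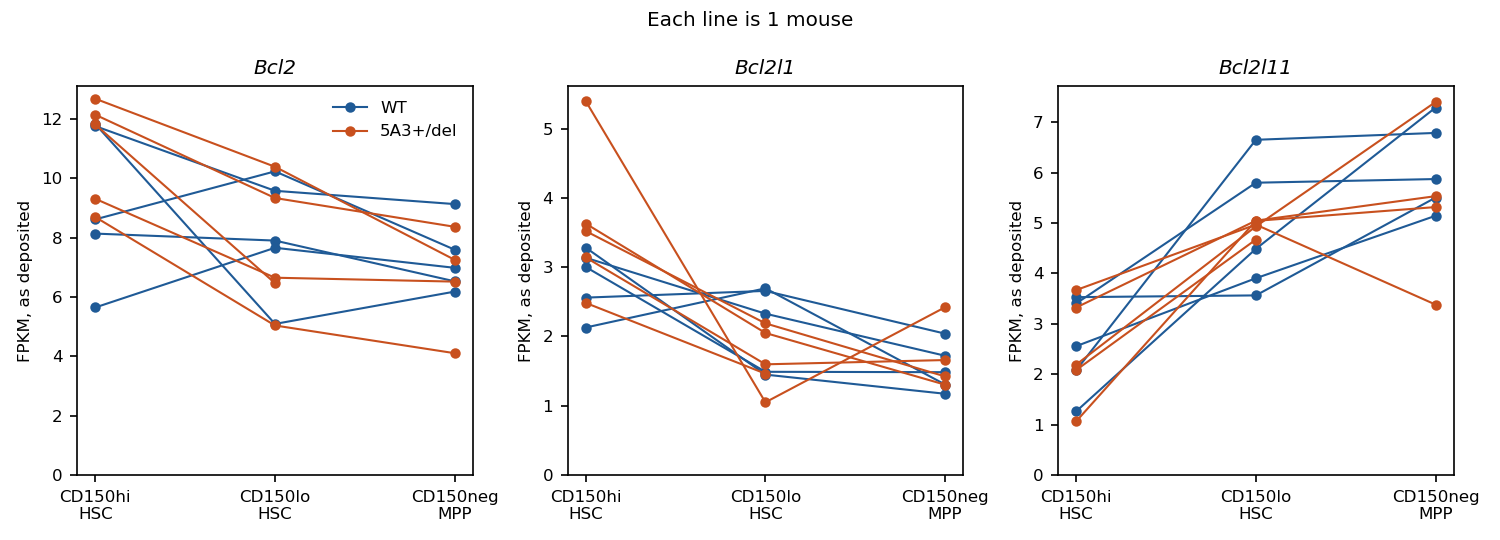
Deposited FPKM (vertical axis, from 0) of Bcl2, Bcl2l1 and Bcl2l11 in the 3 populations, with 1 line per mouse and color for the genotype. From CD150hi HSC to CD150neg MPP the level falls in 8 of 9 mice for Bcl2 and in 9 of 9 for Bcl2l1, and rises in 8 of 9 for Bcl2l11.

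The ratio of Bcl2l11 to a pro-survival gene within a library, which does not depend on library size, joins these opposite differences and is given as a description. Bcl2l11 FPKM per Bcl2 FPKM averaged 0.263 ± 0.11 (SD, n = 10) at CD150hi, 0.666 ± 0.197 (n = 10) at CD150lo and 0.887 ± 0.379 (n = 9) at CD150neg. It was lower in CD150hi HSC than in CD150lo HSC in 10 of 10 mice, and lower than in CD150neg MPP in 9 of 9. Across mice the ranges overlapped, with the highest CD150hi library at 0.418 and the lowest CD150lo library at 0.372. Per Bcl2l1 FPKM the means were 0.812 ± 0.306, 2.81 ± 0.981 and 3.73 ± 0.985, and the highest CD150hi library, at 1.17, lay below the lowest library of the other populations, at 1.53. The share of Mcl1 among the 3 pro-survival genes was 88.0% ± 3.21 (SD, n = 10) in CD150hi HSC, 92.0% ± 2.11 in CD150lo HSC and 92.5% ± 1.41 (n = 9) in CD150neg MPP.

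**Figure D3:**
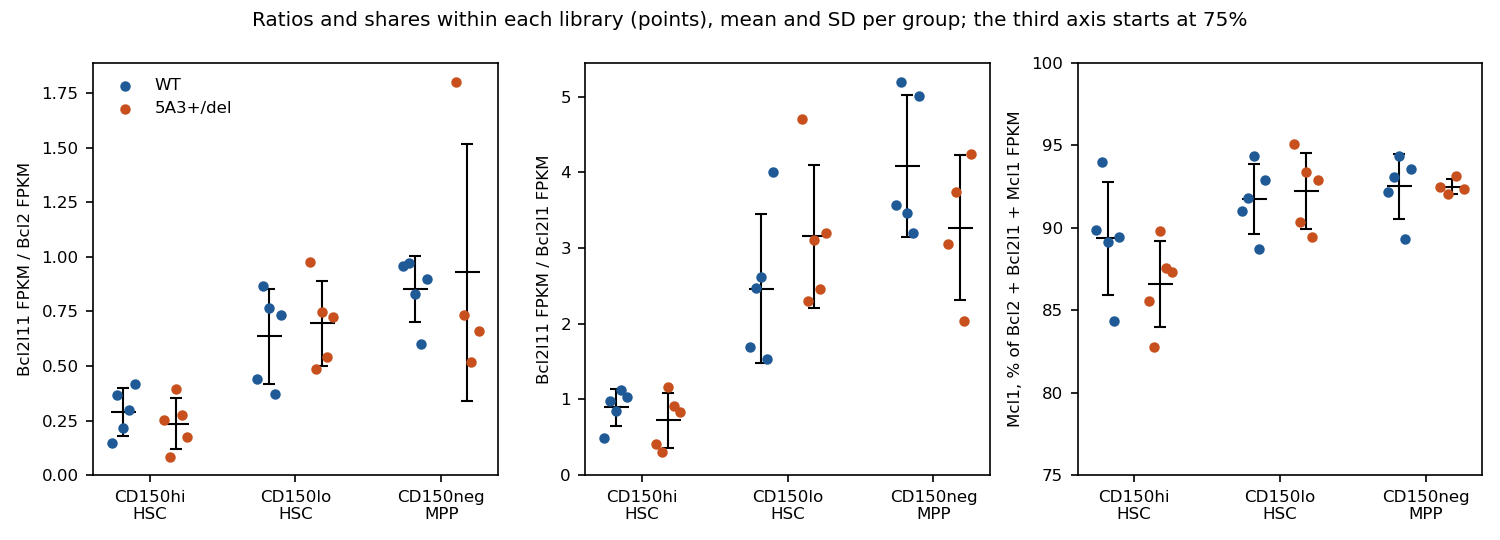
Within-library ratios of Bcl2l11 to Bcl2 and to Bcl2l1 FPKM (first and second vertical axes, from 0) and the share of Mcl1 in the summed pro-survival FPKM (last axis, in percent, starting at 75), by population and genotype, with points for libraries and bars for mean and SD. The CD150hi HSC points lie low in both ratio panels, at 0.084 to 0.418 for Bcl2 and 0.302 to 1.17 for Bcl2l1. For Bcl2 they overlap the CD150lo HSC points, the lowest of which is at 0.372.

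The other 6 members tested had no adjusted p under 0.05 between populations. Mcl1 averaged 100.0 ± 16.01 FPKM (SD, n = 10) in CD150hi HSC, 113 ± 11.7 (n = 10) in CD150lo HSC and 107 ± 14.6 (n = 9) in CD150neg MPP, and the 95% interval of the difference of CD150hi HSC from CD150neg MPP ran from -0.29 to 0.16 on the log2 scale. For Bax, Bak1, Bbc3 and Bad the same intervals lay between -0.29 and 0.47. Bid, which is cleaved by caspase-8 to link death receptors to the mitochondrion, had a log2 difference of -0.32 between CD150hi and CD150lo HSC (limma, unadjusted p = 0.0285, adjusted p = 0.188). Sign changes over 10 mice gave an exact p of 0.041, not adjusted for the number of such tests. The difference was -0.08 in WT libraries alone (adjusted p = 0.913) and -0.55 in 5A3+/del libraries alone (adjusted p = 0.155). It was -0.20 without the 2 libraries with the fewest genes detected, a setting chosen after seeing the data. Pmaip1 was near the floor of 3 fragments in most libraries. It was listed at 0 in 12 of 29 libraries and exceeded 3 fragments in 2 of 10 CD150hi HSC, 7 of 10 CD150lo HSC and 4 of 9 CD150neg MPP libraries, and its highest value, 0.9 FPKM from 79 fragments, came from WT CD150neg MPP of mouse 3. It did not pass the filter, and without a filter it was not called in any comparison.

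The deletion of 5A3 was compared with WT within each population. In CD150hi HSC 0 members had an adjusted p under 0.05 with limma, against 0.156% of all genes, and 2 members, Bak1 and Bid, had an unadjusted p under 0.05, against 13.1% of all genes. In CD150lo HSC the count was again 0, against 0.0324% of all genes, and 1 member, Bbc3, had an unadjusted p under 0.05, against 6.87% of all genes. In CD150neg MPP it was 0, against 0.0454% of all genes, and 0 members had an unadjusted p under 0.05, against 4.27% of all genes. The median log2 difference of the members was -0.06, -0.13 and -0.14 in the CD150hi, CD150lo and CD150neg gates, beside medians of all genes of 0.00, 0.01 and 0.00. The ranges of the 2 genotypes overlapped for every member tested in every population.

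Among the pro-survival members, the 95% intervals of all genotype differences included 0. For Mcl1 the differences were -0.06 ± 0.15, 0.03 ± 0.15 and -0.16 ± 0.16 (log2, SE) in CD150hi HSC, CD150lo HSC and CD150neg MPP, and the 95% interval in CD150hi HSC ran from -0.37 to 0.25. In CD150hi HSC Bcl2 averaged 9.20 ± 2.62 FPKM (SD, n = 5) for WT mice and 10.9 ± 1.80 (n = 5) for mutant mice, a log2 difference of 0.26 with an interval from -0.14 to 0.67. Bcl2l1 averaged 2.82 ± 0.472 and 3.63 ± 1.08 FPKM in the same groups, a log2 difference of 0.24 with an interval from -0.09 to 0.58. Changes of these sizes were not excluded by the intervals, and none passed the test.

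Of the effectors, Bak1 was at 22.1, 27.2, 12.8, 13.4 and 15.1 FPKM in WT CD150hi HSC and at 16.5, 9.10, 10.8, 11.3 and 15.7 in 5A3+/del CD150hi HSC. The 2 highest values were those of WT mice 1 and 2, the latter a library with few genes detected, and the rest of the WT values lay within the range of the mutant. The log2 difference was -0.45 ± 0.19 (SE) (limma, unadjusted p = 0.0245, adjusted p = 0.304). It was 0.17 ± 0.20 in CD150neg MPP, and the difference between these effects, -0.62, had an adjusted p of 0.581. In CD150hi HSC Bax averaged 13.2 ± 4.11 FPKM (SD, n = 5) for WT mice and 9.85 ± 0.897 (n = 5) for mutant mice, a log2 difference of -0.33 with a 95% interval from -0.75 to 0.09. Bak1 shares 357 exon bases with Ggnbp1 on the opposite strand.

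Of the BH3-only members, Bbc3, which encodes PUMA, had log2 differences of -0.36, -0.64 and -0.35 between the genotypes at CD150hi, CD150lo and CD150neg, and did not pass the test in any. In WT CD150lo HSC it was at 3.04, 2.27, 2.60, 1.84 and 1.44 FPKM, and in 5A3+/del CD150lo HSC at 0.669, 1.02, 1.34, 1.99 and 0.745. Mutant mouse 4 lay within the WT range and the other 4 below it. These values rested on 78 to 237 fragments in WT and on 33 to 100 in the mutant. The log2 difference was -0.64 ± 0.25 (SE) (limma, adjusted p = 0.544), and an exact two-sided permutation test over the libraries gave p = 0.0317, the lowest of 27 such tests over members and populations. In CD150hi HSC Bbc3 was at 3.75, 1.10, 2.30, 1.60 and 3.85 FPKM in WT and at 0.318, 1.15, 2.37, 1.93 and 2.47 in 5A3+/del mice, and in CD150neg MPP at 2.72, 2.51, 2.49, 1.68 and 1.79 in WT and at 0.972, 0.617, 2.97 and 1.74 in the mutant. The genotypes overlapped in both, and the lowest value of all, from 17 fragments, was that of the library with the fewest genes detected.

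Averaged over the 3 populations with the mouse as a block, a contrast added after these values were seen, Bbc3 had a log2 difference of -0.45 ± 0.15 (SE), with a 95% interval from -0.77 to -0.13 (limma, unadjusted p = 0.00705, adjusted p = 0.26). No member had a lower adjusted p in this contrast, in which 0 members and 0.247% of all genes were called. The next was Bax, at -0.24 ± 0.13 (adjusted p = 0.557). In CD150lo HSC the sum of granulocyte and monocyte markers had a median of 167 FPKM in WT and 129 in 5A3+/del libraries, and in CD150hi HSC of 287 and 15.0. In CD150neg MPP it was higher in the mutant, at 72.8 against 57.5. The part of such cells in the Bbc3 values was not tested, nor that in the Bak1, Bid and Bax values of CD150hi HSC. Of these markers, S100a8 averaged 93.6, 136 and 38.5 FPKM in the CD150hi, CD150lo and CD150neg gates. The part of such cells in the differences between populations was not tested either.

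Bid was at 8.38, 4.55, 3.93, 6.65 and 6.65 FPKM in WT CD150hi HSC and at 1.85, 4.97, 4.69, 4.99 and 4.59 in 5A3+/del CD150hi HSC. The mutant value of mouse 1 stood apart, and the other 4 lay within the WT range. The log2 difference of -0.40 ± 0.19 (SE) (limma, unadjusted p = 0.0485, adjusted p = 0.377) was -0.24 without that mouse. Bid shares 628 exon bases with Bcl2l13, and Bad 517 with Gpr137, on opposite strands. Bcl2l11, the member that differed most between populations, had genotype differences of -0.04, 0.03 and -0.17 in CD150hi HSC, CD150lo HSC and CD150neg MPP, with 95% intervals that together ran from -0.58 to 0.42. Those of Bad were 0.15, -0.13 and -0.12, with intervals that together ran from -0.62 to 0.62.

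The genotype effect was also compared between populations. By limma, 0 members and 0% of all genes had an adjusted p under 0.05 for CD150hi against CD150lo HSC, as for CD150lo HSC against CD150neg MPP and for CD150hi HSC against CD150neg MPP. The counts at an unadjusted p under 0.05 were 1 member (Bcl2l1), 0 members and 1 member (Bak1), where 3.98%, 5% and 7.96% of all genes had such a p.

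**Figure D4:**
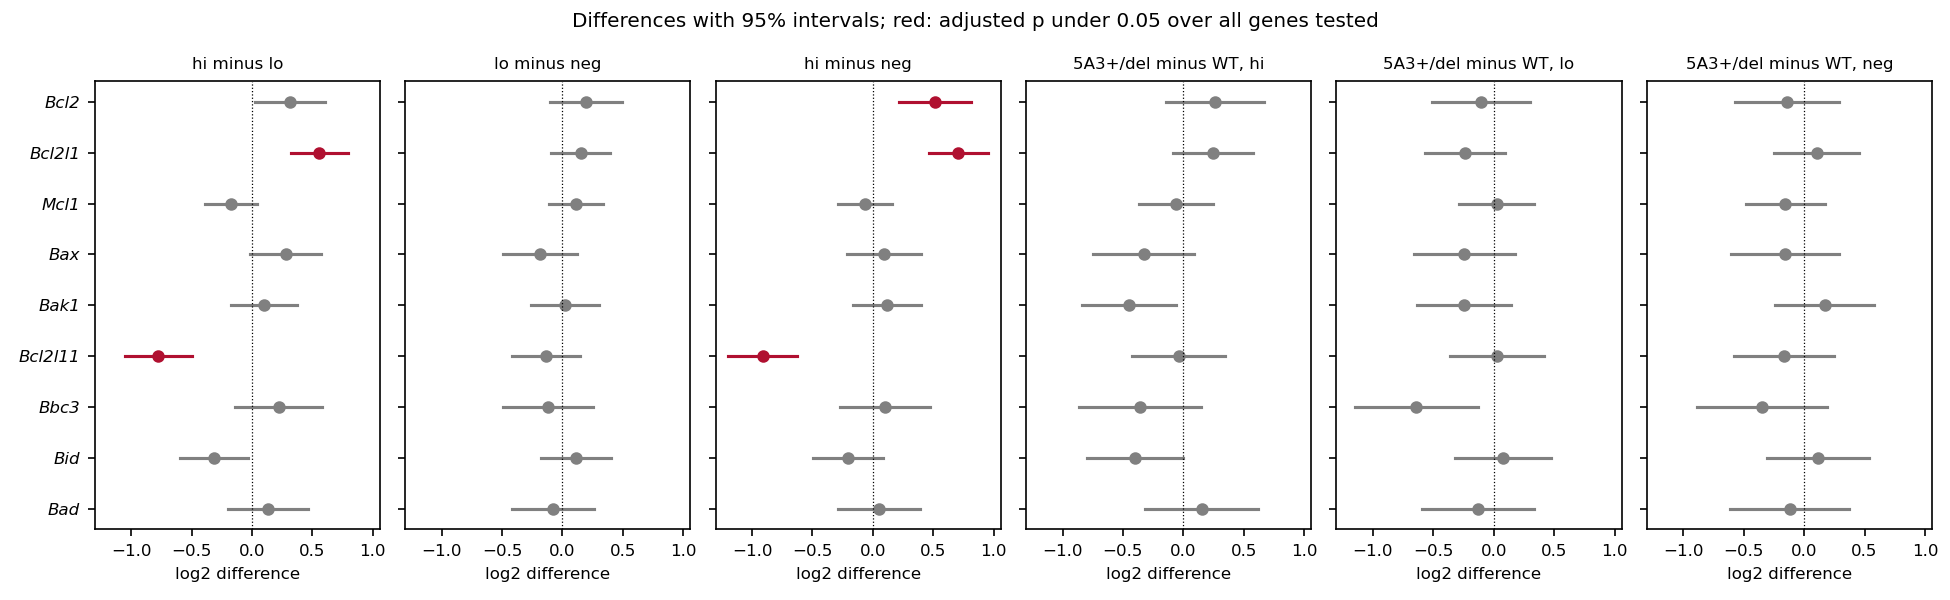
log2 differences (horizontal axis, normalized log2(FPKM + 1)) of the 9 members tested, with 95% intervals, for the 3 comparisons of CD150 gates and the 3 of genotype; red marks an adjusted p under 0.05 over all genes. Red appears for Bcl2l1 and Bcl2l11 in hi minus lo and for Bcl2, Bcl2l1 and Bcl2l11 in hi minus neg, and in none of the genotype panels.

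A list of 63 other genes of the apoptosis pathway was described in the same fit, of which 52 were tested, 10 did not pass the filter and 1 was not analysed here. Between CD150hi HSC and CD150neg MPP, 3 of them were called higher in CD150hi HSC and 4 lower, against the 13.2% of all genes called, with a median log2 difference of -0.07 over the list and 0.00 over all genes. The death receptor genes Fas and Tnfrsf10b were higher in CD150hi HSC, by 0.96 ± 0.16 (log2, SE, limma, adjusted p = 0.000101) and 0.83 ± 0.19 (adjusted p = 0.0031). Fas was low throughout, with a median of 1.41 FPKM (range 0.108 to 3.06, n = 10) in CD150hi HSC and of 0.177 (range 0 to 0.811, n = 9) in CD150neg MPP. The FOXO factors, known to drive Bcl2l11 and Bbc3, moved in opposite directions: Foxo1 was higher by 0.57 ± 0.13 (adjusted p = 0.0032), from 10.4 FPKM in CD150neg MPP to 15.5 in CD150hi HSC, and Foxo3, the more abundant, was lower by a difference of -0.30 ± 0.07 (adjusted p = 0.00262), at 40.2 against 51.2 FPKM. Cycs, which encodes cytochrome c, Casp2, which encodes caspase-2, and Trp53inp1, a p53 target, were lower, at -0.41, -0.35 and -0.49. Between CD150hi and CD150lo HSC only Fas (0.82, adjusted p = 0.000801) and Bcl2l14 (-0.46, adjusted p = 0.0132) passed, 2 of 52 against 7.64% of all genes, the latter at 2 FPKM or less. Between CD150lo HSC and CD150neg MPP, and between genotypes in each population, limma called 0 of the 52. At an unadjusted p under 0.05 there were 3 of 52 between CD150lo HSC and CD150neg MPP, against 7.93% of all genes. Between genotypes there were 2 at CD150hi, 4 at CD150lo and 1 at CD150neg, against 13.1%, 6.87% and 4.27% of all genes.

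Other family members of the pathway list covered a wide range of levels. Bcl2a1a, Bcl2a1b, Bcl2a1d and Bcl2l10, which encode further pro-survival proteins, reached at most 0.63 FPKM in any library, and the BH3-only gene Hrk reached 0.0633. The Bcl2a1 copies are near identical, so reads may have been lost or divided among them. Bcl2l2, which encodes BCL-W, was at 3.63 ± 1.47 FPKM (SD, n = 10) in CD150hi HSC, and Bnip3l, at 27.96 ± 4.03, was above the mean of every member but Mcl1.

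The genes whose normalized log2 values followed a called member most closely over the 29 libraries, which share sorting gates and mice, were named as a description. For Bcl2l1 they were Sorbs2, Rhoj and Igf2bp2 (Pearson r of 0.874, 0.874 and 0.872), of which Igf2bp2 averaged 4.12 FPKM in CD150hi HSC and 0.565 in CD150neg MPP. For Bcl2l11 they were Cd69, Kcna3 and Dock10 (r of 0.872, 0.847 and 0.841), and Cd69 averaged 2.41 and 12.5 FPKM in the same populations. For Bcl2 they were Pigg, Cd63 and Zranb1 (r of 0.763, 0.749 and 0.736). Among the members themselves, Bcl2l1 and Bcl2l11 had an r of -0.63 over all libraries and of 0.11 once the group means were taken out, and Bcl2 and Bcl2l11 one of -0.55 and -0.21.

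In the GENCODE gene models of mm9, Bcl2 lies at chr1:108434755-108610851 on the minus strand, Bcl2l1 at chr2:152593052-152657464 on the minus strand and Bcl2l11 at chr2:127951774-127988283 on the plus strand. Bbc3 lies at chr7:16894965-16903554 on the plus strand, Bax at chr7:52717065-52722268 on the minus strand, and Bak1 at chr17:27156755-27165954 on the minus strand. None of the 10 members lies on chromosome 5, which carries the deletion, and the FPKM of each counts fragments over its exons.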

How the data were processed

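RNA of sorted cells was amplified to cDNA, sequenced and mapped to mm9 by the authors, who deposited FPKM for 30025 genes in 29 libraries. The submitters' processing notes name Bowtie version 0.12.2 and HTSeq, and a setting for strand was not given in the sources used here. The measure that the study itself tested, exon coverage, was not used here. Values were taken by gene symbol, and 29279 identifiers (97.5%) matched the GENCODE annotation of mm9.

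FPKM were transformed as log2(FPKM + 1), quantile normalized over the 29 libraries and fitted with limma version 3.58.1 in R version 4.3.3 to 6 group means (15409 genes with FPKM of at least 1 in at least 4 libraries). P-values were two-sided, with Benjamini-Hochberg adjustment over all genes and a threshold of 0.05. Exact permutation and sign-change tests and figures were made with Python version 3.11.15, numpy version 2.4.6 and matplotlib version 3.10.9. Between 98.1% and 98.6% of low values were whole fragments within 0.02. Amplified fragments are not independent molecules, so the floor of 3 fragments covers counting error only. The fit was first tested on simulated data.

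Groups, replicate numbers and the mouse of each library came from the sample labels, which call the CD150neg cells HSC where the study writes MPP. Replicate numbers pair the populations because same-numbered libraries of a genotype are from 1 mouse. Deviations from the group means correlated at a median of 0.08 (range -0.04 to 0.235) over 28 such pairs and at -0.025 over other pairs. WT and 5A3+/del mice of the same number are different animals.

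The members and lists were chosen with earlier results of these data known. All members are named, with genes of the pathway list at an adjusted p under 0.05 (at most 8 per comparison) and the 3 genes most correlated with each called member. Bcl2l2, Bnip3l, Hrk, the Bcl2a1 genes and Bcl2l10 were named after their values were seen. Alternatives covered the pseudocount, filter, normalization, variance prior, block, libraries in the fit, age, Xist and leaving out each mouse.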

Additional observations from a re-analysis of the deposited data

Results flagged for a closer look

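Within groups of 4 or 5 libraries, the value farthest from the rest was compared with Dixon's 95% limit. Of 60 sets of a member and a group, 6 passed it. Chance alone flags about 1 in 20 sets where values are close to normally distributed. This rate does not hold for Pmaip1, which was listed at 0 in 12 of 29 libraries. Bid was at 1.85 FPKM in 5A3+/del CD150hi HSC of mouse 1, below 4.59 to 4.99 in the others. It was at 8.87 FPKM in WT CD150neg MPP of mouse 2, above 4.71 to 5.73, and at 8.94 FPKM in 5A3+/del CD150lo HSC of mouse 4, above 5.54 to 6.41. Pmaip1 was at 0.900 FPKM (79 fragments) in WT CD150neg MPP of mouse 3 and at 0.300 FPKM (21 fragments) in 5A3+/del CD150neg MPP of mouse 3. In WT CD150hi HSC of mouse 3 it was at 0.0278 FPKM, which is 2 fragments and under the floor of 3. The other libraries of that group were listed at 0, so any value above 0 would have passed the limit.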

How the results depend on the processing

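With the mouse as a replicate block (correlation 0.0792) the same number of members was called in each comparison, 2 between CD150hi and CD150lo HSC and 3 between CD150hi HSC and CD150neg MPP, and it changed no other call. Over 22 alternatives for each genotype comparison and each comparison of genotype effects, 0 members were called, and 0 over 24 alternatives between CD150lo HSC and CD150neg MPP. Between CD150hi and CD150lo HSC 1 member, Bcl2l11, was called in WT libraries only, where Bcl2l1 was at 0.32, and 2 in the other 23 alternatives. Between CD150hi HSC and CD150neg MPP the count was 2 in the libraries of either genotype alone, where Bcl2 lost its call, and 3 in the other alternatives. Such fits hold fewer samples, and their estimates also differed. In 5A3+/del libraries only, Bcl2l1 was at 0.81 against CD150lo HSC. Bcl2 against CD150neg MPP was at 0.31 in WT and at 0.72 in 5A3+/del libraries only. The cause of the lost calls was not tested. Bcl2l11 was called in all 24 alternatives of both its comparisons, between -0.99 and -0.68 against CD150lo HSC and between -1.15 and -0.82 against CD150neg MPP, and Bcl2l1 against CD150neg MPP in all 24, between 0.65 and 0.99. A pseudocount of 0.1 gave -1.04 for the genotype difference of Bbc3 in CD150lo HSC. Bid in CD150hi HSC ranged from -0.54 to -0.24, and without 5A3+/del mouse 1 the genotype difference in the Bcl2l1 step was 0.27. Of the differences with an unadjusted p of 0.05 or more, 10 of 24 between genotypes and 10 of 20 between populations changed sign under at least 1 alternative, and 0 were called, so the sign of a printed difference of this kind depends in part on the processing. Shares of the pro-survival genes moved by less than 1 SD with normalized FPKM. Every group had only 4 or 5 mice. The thinnest library of a tested member held 17 fragments (Bbc3), and those of Pmaip1 held 0 to 79. Without the filter Pmaip1 entered the fit, and the counts of members called stayed at 2, 3 and 0 between populations and 0 between genotypes.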
